A study of Oryza sativa Japonica Group with 9 samples.

Results

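Light reaches a seedling's shoot apex through a small set of receptor and relay genes, and 8 of these are described here in rice: the phytochrome genes PHYA, PHYB and PHYC, the cryptochrome genes CRY1a, CRY1b and CRY2, the ubiquitin ligase gene COP1, and PIL13, which encodes a phytochrome-interacting bHLH factor. The rule that chose them names the loci and uses no measured value, but it was set with earlier results of these data known. They are 8 of 55719 named loci in the expression tables. Messenger RNA was sequenced from the shoot apex (the 2 to 3 mm tip that holds the meristem and youngest leaves) of 5-day-old seedlings of 3 genotypes, namely the wild-type cultivar Hwayoung and the mutants wox11 and jmj705, with 2 libraries each. The seedlings grew on medium with 2% sucrose in cycles of 14 h light at 28 °C and 10 h dark at 24 °C, and no source used here gives the hour of sampling. WOX11 is a WUSCHEL-related homeobox transcription factor and JMJ705 a demethylase of lysine 27 on histone H3. Binding of JMJ705 was mapped by anti-FLAG chromatin immunoprecipitation (ChIP-seq) in apices of lines over-expressing JMJ705, whose background was either wild type or wox11 mutant, with 1 peak list each and so no replicate. No source used here gives the mutants' lesions or the promoter of the over-expressed gene.

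Phytochromes sense red and far-red light, and cryptochromes sense blue light. In darkness, COP1 marks light-promoting transcription factors such as HY5 for destruction, and PIF-type bHLH proteins drive elongation. In light, activated photoreceptors hold COP1 in check and phytochromes bind PIF proteins, which are then degraded, as worked out mainly in Arabidopsis. In rice, these genes act on coleoptile and internode growth and on the timing of flowering, and PHYA transcript is known to fall in light.

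Expression is given as FPKM, fragments per kilobase of transcript scaled to the mapped fragments of the library, which allows levels to be compared between genes. Levels are the value of each library or the mean ± SD of 2 libraries, and log2 changes are differences of log2(FPKM + 1), mutant minus wild type unless stated, from limma fitted to 21480 loci, with Benjamini-Hochberg adjustment over all of them and a threshold of 0.05. All 8 members passed the filter of 1 FPKM in 2 libraries, and each exceeded it in all 6 libraries. The labels were checked first. WOX11 stood at 4.52 and 5.00 FPKM in the wild-type pair and at 1.49 and 1.11 in wox11. This log2 change of -1.33 itself missed the threshold in limma's test (adjusted p = 0.0575). JMJ705 stood at 7.41 and 6.73 FPKM in the wild-type pair but at 13.7 and 12.5 in the pair labelled jmj705, which goes against a loss of transcript, so every direction given for jmj705 rests on its label. Shoot meristem markers (OSH1, OSH15 and OSH71) summed to 103 to 175 FPKM across the 6 libraries, the root marker RCc3 stood at 23.9 to 146 FPKM, and of the seed markers GluA-1 reached at most 0.736 FPKM and GluB-1 stood at 0. Correlations of log2(FPKM + 1) across loci between any 2 libraries were 0.962 to 0.987. The pairs of 1 genotype gave 0.982 (wild type), 0.987 (wox11) and 0.98 (jmj705). Libraries of different genotypes reached 0.981 (wox11 replicate 1 with jmj705 replicate 1), so replicates were not always the closest. In whole apices, fewer cells of a type and less RNA per cell cannot be told apart.

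PHYA was the most abundant of the 8 genes in every library, and none of the 8 changed by limma's test in either mutant. PHYA (LOC_Os03g51030, chromosome 3, 29168142 to 29176112), which encodes the receptor for continuous far-red light, stood at 56.8 and 53.4 FPKM in the wild-type pair, 57.0 and 58.8 in wox11, and 64.3 and 71.2 in the pair labelled jmj705. Its 3 genotypes did not overlap, with wild type lowest and jmj705 highest. The level of PHYA exceeded that of 89.6% of the tested loci, whose median was 11.3 FPKM.

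PHYB (LOC_Os03g19590, chromosome 3, 11020024 to 11028228), the main red-light receptor, stood at 25.1 and 35.8 FPKM in the wild-type pair, 24.7 and 27.4 in wox11, and 26.7 and 33.8 in the pair labelled jmj705. PHYC (LOC_Os03g54084), a phytochrome whose protein in rice pairs with that of PHYB, stood at 25.3 and 31.8 FPKM in the wild-type pair, 24.8 and 31.9 in wox11, and 26.4 and 29.4 in the pair labelled jmj705. Both sets of values overlapped between all genotypes, and in both genes the second library of each genotype lay above the first. The same held for FPKM summed over named loci. Those sums were 729696 and 799908 for wild type, 700090 and 742334 in wox11, and 710183 and 820527 in the pair labelled jmj705. The reverse held in CRY2, COP1 and CRY1a, whose first library lay above the second in each genotype. The deposited entry of PHYC (chromosome 3, 31004292 to 31013940) joins it with LOC_Os03g54091, so its value covers both genes. PHYA held 44.1 to 54.8% of the summed FPKM of the 3 phytochromes, and the ratio of PHYB to PHYC lay between 0.860 and 1.15.

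Among cryptochromes, CRY2 was 3.06 to 4.32 times as abundant as CRY1a in the same library, and the ratio of CRY1a to CRY1b lay between 0.909 and 1.24. CRY2 (LOC_Os02g41550, chromosome 2, 24915438 to 24922099), which promotes flowering in rice, stood at 25.3 and 24.0 FPKM in the wild-type pair, 21.7 and 18.9 in wox11, and 23.6 and 20.7 in the pair labelled jmj705. Both mutants lay below both wild-type libraries and overlapped each other. CRY1a (LOC_Os02g36380, chromosome 2, 21976509 to 21980417), which restrains seedling elongation in blue light, stood at 5.84 and 5.74 FPKM in the wild-type pair, 5.58 and 5.44 in wox11, and 6.76 and 6.75 in the pair labelled jmj705. Its 3 genotypes did not overlap, wox11 being lowest and jmj705 highest. CRY1b (LOC_Os04g37920, chromosome 4, 22549882 to 22555178), its close relative, stood at 5.84 and 6.32 FPKM in the wild-type pair, 6.02 and 5.37 in wox11, and 6.06 and 5.47 in the pair labelled jmj705, with all genotypes overlapping. The log2 range of CRY1b over the 6 libraries, 0.20, was narrow, with 5.98% of tested loci showing a smaller one and a median range over those loci of 0.46.

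COP1 (LOC_Os02g53140, chromosome 2, 32528037 to 32533583), which in rice also sets the passage from juvenile to adult leaves, stood at 21.4 and 18.9 FPKM in the wild-type pair, 18.2 and 18.0 in wox11, and 18.8 and 13.5 in the pair labelled jmj705. Both mutants lay below both wild-type libraries, narrowly in all but jmj705 replicate 2. PIL13 (LOC_Os03g56950, chromosome 3, 32431962 to 32435845), which promotes internode elongation in rice, stood at 7.50 and 5.00 FPKM in the wild-type pair, 4.36 and 5.53 in wox11, and 4.42 and 4.10 in the pair labelled jmj705. Both libraries labelled jmj705 of PIL13 lay below both wild-type libraries, and wox11 overlapped with wild type. It had the widest log2 range of the 8 genes, 0.74 over the 6 libraries, wider than that of 78.5% of tested loci. COP1 was next, at 0.63.

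**Figure D1:**
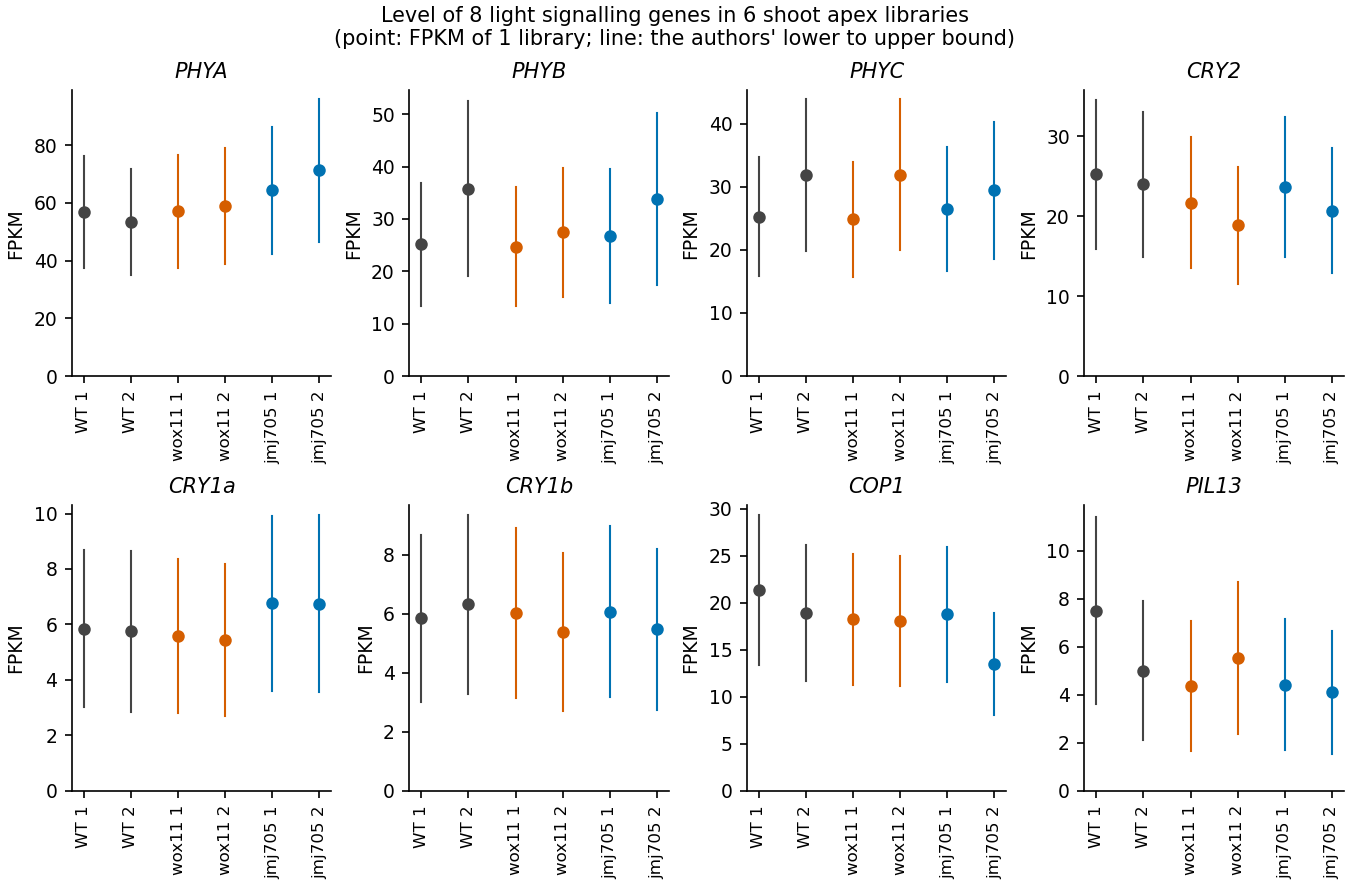
FPKM of the 8 genes in each of the 6 libraries (x axis: genotype and replicate; y axis: FPKM from 0), with the lower and upper confidence bounds that the authors deposited as vertical lines. In each gene the bounds of all 6 libraries share a range of values, as for PHYA between 46.6 and 71.8 FPKM. Bounds this wide can also do so in a gene that changed.

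The deposited confidence bounds give the precision of a single library. For each of the 8 genes the bounds of all 6 libraries shared a common range. Bounds this wide can do so in a gene that changed. Those of the green leaf marker RBCS2, which fell in wox11 (limma adjusted p = 0.0319), also shared one. A shared range therefore does not show that a gene is unchanged. The upper bound lay 34.1 to 34.6% above the value for PHYA, 37.3 to 40.2% for COP1 and 52.0 to 62.3% for PIL13, the least precise of the members. No other entry of the tables overlapped any of the 8 loci.

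By mean FPKM the order was PHYA, PHYB, PHYC, CRY2, COP1, CRY1a, CRY1b and PIL13. Neighbours in that order were compared within libraries by an exact sign-flip permutation test on log2 ratios (two-sided, 7 pairs), for which 6 libraries allow no p below 0.0312. PHYA was above PHYB in 6 of 6 libraries by 1.49 to 2.41 times (exact p = 0.0312, adjusted 0.0547), and COP1 above CRY1a in 6 of 6 by 2.00 to 3.65 times (exact p = 0.0312, adjusted 0.0547). These were the only neighbours whose ranges did not overlap. PHYC was above CRY2 by 1.00 to 1.69 times and CRY2 above COP1 by 1.05 to 1.53 times, each in 6 of 6 libraries (exact p = 0.0312, adjusted 0.0547), with overlapping ranges. PHYB was above PHYC in 3 of 6 libraries (exact adjusted p = 0.906) and CRY1a above CRY1b in 4 of 6 (exact adjusted p = 0.620). CRY1b was above PIL13 in 4 of 6 (exact adjusted p = 0.263), so these pairs kept no fixed order. With 6 libraries and 7 pairs none reached an adjusted p of 0.05. The pairs and their direction were taken from these same values, and the 6 libraries pool 3 genotypes. The p-values therefore do not test the order, which is a description.

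The wox11 comparison asks whether the light-signalling genes depend on WOX11 in the apex. Of the 8 genes, 0 passed limma's test, as 0.838% of all tested loci did, and 0 had an unadjusted p under 0.05, against 10.5% of tested loci. The largest differences were in CRY2, from 24.6 ± 0.881 to 20.3 ± 2.00 FPKM (log2 change -0.27, 95% interval -0.58 to 0.03, adjusted p = 0.543), and PIL13, from 6.25 ± 1.77 to 4.94 ± 0.828 (log2 change -0.27, interval -0.75 to 0.21, adjusted p = 0.731). The PIL13 value rests on single libraries, being -0.021 and -0.52 when wild-type replicates 1 and 2 were left out in turn, and -0.13 and -0.42 when those of wox11 were. The value of CRY2 was -0.18 when wox11 replicate 2 was left out. COP1 had a log2 change of -0.14 (interval -0.53 to 0.25, adjusted p = 0.845), or -0.060 and -0.23 without wild-type replicates 1 and 2. PHYA had the narrowest interval, -0.20 to 0.34 around a log2 change of 0.07. Over the 8 genes the intervals ran from -0.75 to 0.38, so a 2-fold change on the log2(FPKM + 1) scale lay outside every one of them, while changes within them could not be told from none with 2 libraries per genotype. The genotypes did not overlap in 4 of the 8 genes (PHYA higher, against 20.3% of tested loci, and CRY1a, CRY2 and COP1 lower, against 22.6%), or 42.9% of tested loci in either direction. The median log2 change was -0.11 over the 8 genes and -0.016 over all tested loci.

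The jmj705 comparison asks the same of JMJ705. Again 0 of the 8 genes passed limma's test, against 0.4% of tested loci (0.321% higher and 0.0791% lower), and 1, PHYA, had an unadjusted p under 0.05, against 12% of tested loci. PHYA stood at 55.1 ± 2.39 FPKM for wild type and 67.8 ± 4.88 in the pair labelled jmj705 (log2 change 0.29, interval 0.02 to 0.57, adjusted p = 0.380), higher in 2 of 2 libraries. PIL13 stood at 6.25 ± 1.77 and 4.26 ± 0.226 FPKM (log2 change -0.44, interval -0.92 to 0.04, adjusted p = 0.452), and COP1 at 20.1 ± 1.72 and 16.1 ± 3.74 (log2 change -0.32, interval -0.71 to 0.07, adjusted p = 0.512). Without wild-type replicates 1 and 2 the log2 change of PIL13 was -0.19 and -0.69, and without jmj705 replicates 1 and 2 that of COP1 was -0.54 and -0.094. CRY1a had a log2 change of 0.19 (interval -0.12 to 0.50, adjusted p = 0.632), and CRY2 one of -0.15 (interval -0.45 to 0.15, adjusted p = 0.724), which was -0.24 and -0.056 without jmj705 replicates 1 and 2. PHYB and PHYC had log2 changes of 0.00 (interval -0.45 to 0.45) and -0.02 (interval -0.42 to 0.37). The genotypes did not overlap in 5 of the 8 genes (PHYA and CRY1a higher, against 17.5% of tested loci, and CRY2, COP1 and PIL13 lower, against 21.5%), or 39% of tested loci in either direction. The median log2 change was -0.045 against -0.018. Both comparisons share the wild-type libraries, so their values are not independent of each other.

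Between the mutants, jmj705 minus wox11, 0 of the 8 genes passed limma's test, against 0.284% of tested loci (0.172% higher and 0.112% lower), and 0 had an unadjusted p under 0.05, against 7.3%. CRY1a had the largest difference, with 6.75 ± 0.0035 FPKM in the pair labelled jmj705 and 5.51 ± 0.102 in wox11 (log2 difference 0.25, interval -0.06 to 0.56, adjusted p = 0.769). PHYA followed at a log2 difference of 0.22 (interval -0.05 to 0.49, adjusted p = 0.772). These 2 genes were also the ones whose genotypes did not overlap, both higher (18.1% of tested loci), and 0 were lower (19%), against 37.1% of tested loci in either direction. The median over the 8 genes was 0.069, against 0.0016 over all tested loci.

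**Figure D2:**
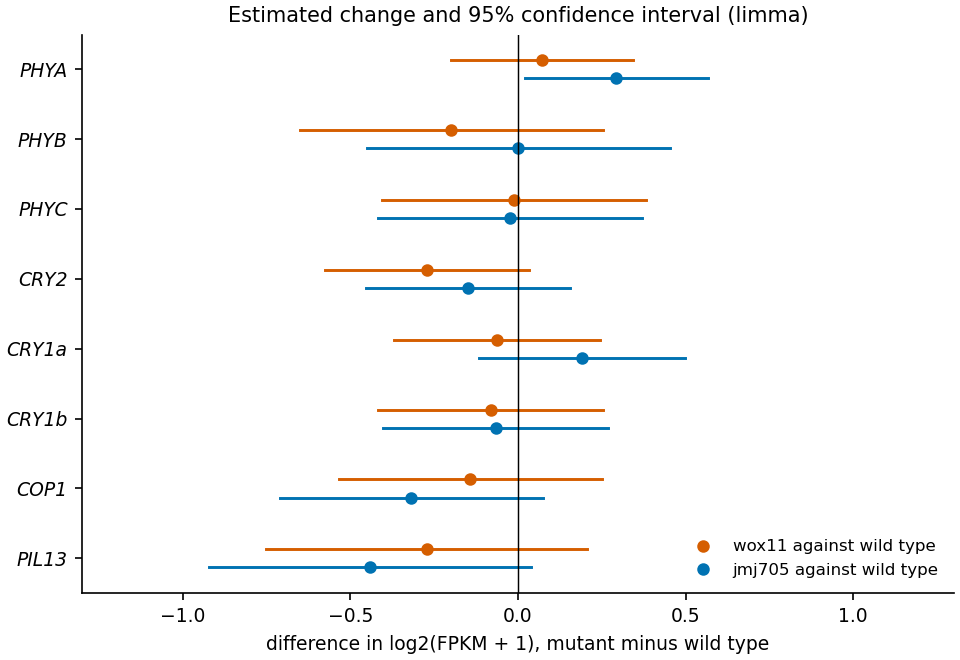
Estimated difference in log2(FPKM + 1), mutant minus wild type (x axis), for the 8 genes (y axis), with limma's 95% confidence interval as a line and 2 libraries per genotype. The interval of PHYA in the pair labelled jmj705, 0.02 to 0.57, is the one that leaves out 0, before adjustment for 21480 loci, after which p is 0.380.

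The likeness of 2 genes' profiles was measured as the root mean square difference of their log2(FPKM + 1) values, each centred on its own mean over the 6 libraries, among 26 other light-signalling, clock and mutated genes with at least 5 FPKM on average. PHYA and CRY1a were each other's nearest, at 0.077, where PHYA alone departed from its mean by 0.13 and CRY1a by 0.11. PIL13 was nearest to PIL16, another PIF-like gene, at 0.14 against its own departure of 0.25. PHYB was nearest to PHYC (0.13), PHYC to CSN5 (0.10), CRY2 to CRY1b (0.094) and COP1 to HY2 (0.13). CRY1b was nearest to DET1 at 0.068, which is close to its own departure of 0.071. These are descriptions over 6 libraries.

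Genes that work beside the 8 members were read from the same fit. The list, like the members, was chosen with earlier results of these data known. It held 25 genes, of which 20 matched an entry of their own. DDB1, SPA1b and bZIP01 lie in entries that join several genes, PIL11 has 2 entries, and PIL15 (LOC_Os01g18290) matched no entry by its locus name. These 5 were not counted. Of the 20, 17 passed the FPKM filter. In wox11, 1 rose and 1 fell, against 0.456% and 0.382% of tested loci, and 15 did not pass. In the libraries labelled jmj705 and between the mutants 0 of 17 passed limma's test, or 1, BBX4, in each with the replicate number as a block. An unadjusted p under 0.05 was seen for 4 of the 17 in wox11, 5 in the pair labelled jmj705 and 4 between the mutants, against 10.5%, 12% and 7.3% of tested loci. The genotypes did not overlap in 11 of the 17 for wox11 and wild type (6 higher and 5 lower in wox11), against 42.9% of tested loci. For the pair labelled jmj705 and wild type it was 11 (4 higher and 7 lower), against 39%. Between the mutants, 9 of the 17 lay lower in both libraries labelled jmj705 than in both of wox11, and 1 lay higher, against 19% and 18.1% of tested loci. The list's median log2 change was 0.03 in wox11, -0.07 in the pair labelled jmj705 and -0.18 for jmj705 minus wox11, against medians over all tested loci of -0.016, -0.018 and 0.0016.

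The gene that fell in wox11 was BBX4, one of the B-box zinc finger genes, a family with several Arabidopsis members that bind HY5 and are marked by COP1. BBX4 (LOC_Os02g39360, chromosome 2, 23758974 to 23769165) stood at 75.2 and 52.9 FPKM in the wild-type pair, 12.3 and 11.04 in wox11, and 32.3 and 24.1 in the pair labelled jmj705. The 3 genotypes did not overlap, wox11 being lowest and jmj705 between. BBX4 fell in wox11, with means of 64.0 ± 15.7 and 11.7 ± 0.922 FPKM (log2 change -2.34, SE 0.20, adjusted p = 0.00442), a call lost without wox11 replicate 2 (adjusted p = 0.0624) and with no FPKM filter (0.0914), over a span of 0.0023 to 0.0914. In the libraries labelled jmj705 it stood at 28.2 ± 5.82 FPKM (log2 change -1.15, SE 0.20, adjusted p = 0.0832). Jmj705 minus wox11 gave 1.19 (adjusted p = 0.103). With the replicate number as a block both differences passed (adjusted p = 0.0300 and 0.0274), and over all alternatives tried their adjusted p spanned 0.0300 to 0.301 and 0.0274 to 0.699. The BBX4 entry overlaps another that joins 3 genes, with 24.8 to 29.8 FPKM in all 6 libraries, so reads can be divided between the 2 entries. Its relative BBX14 stood at 2.51 to 3.92 FPKM and did not pass.

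FKF1, which encodes a blue-light-sensing F-box protein tied to the clock, was the gene that rose in wox11. It stood at 1.41 and 4.48 FPKM in the wild-type pair, 22.0 and 19.1 in wox11 (adjusted p = 0.0318), and 11.5 and 17.2 in the pair labelled jmj705 (adjusted p = 0.0847). The rise lost its call without wox11 replicate 1 (adjusted p = 0.201) or 2 (0.156), with no FPKM filter (0.212), under quantile scaling (0.0531) and in a fit of 2 genotypes (0.058), and its adjusted p spanned 0.00529 to 0.212. In the libraries labelled jmj705 it passed without wild-type replicate 2 (0.0176, the lowest of a span up to 0.279). Its relatives ZTL1 and ZTL2 were among the steadiest genes of the list, at 38.2 to 42.7 and 24.3 to 28.0 FPKM. The clock gene LHY stood at 123 to 147 FPKM for wild type, 4.85 to 5.31 in wox11 and 40.9 to 54.1 in the pair labelled jmj705, the same order of genotypes as BBX4. GI, another clock gene, stood at 43.9 and 56.6 FPKM in the wild-type pair and 197 and 213 in wox11. The pair labelled jmj705 had 147 and 140 FPKM of GI, and the order of genotypes was that of FKF1. Green leaf markers (LHCB3, RCA and RBCS2) summed to 299 to 332 FPKM for wild type, 107 to 137 in wox11 and 161 to 162 in the pair labelled jmj705, with none of 3 at 0. Meristem markers summed to 141 to 159, 103 to 113 and 126 to 175 FPKM, with none of 3 at 0, and the root marker RCc3 stood at 89.7 to 146, 23.9 to 61.8 and 102 to 131. The part of leaf, meristem or root cells and of the clock in these differences was not tested.

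The HY5-like gene bZIP18, whose Arabidopsis relative HY5 is a target of COP1, stood at 13.4 and 8.68 FPKM in the wild-type pair, 10.7 and 10.1 in wox11, and 5.999 and 4.58 in the pair labelled jmj705. Both libraries labelled jmj705 lay below the other 4 (log2 change against wild type -0.92, SE 0.21, adjusted p = 0.153), which misses the threshold. Its relative bZIP48 stood at 0 to 0.149 FPKM. UVR8a, one of the UV-B receptor genes, stood at 11.3 and 11.9 FPKM in the wild-type pair, 15.8 and 16.8 in wox11, and 15.8 and 15.0 in the pair labelled jmj705, with both mutants above wild type (adjusted p = 0.200 and 0.259). The more abundant UVR8b had 64.8 to 85.8 FPKM.

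**Figure D3:**
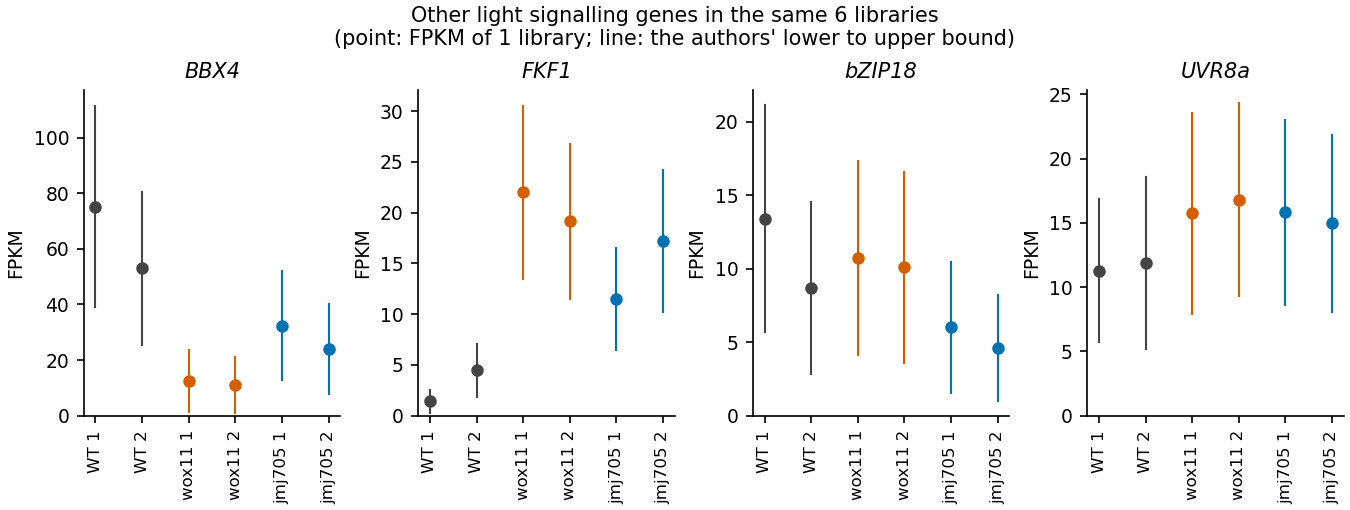
FPKM (y axis, from 0) of BBX4, FKF1, bZIP18 and UVR8a in each of the 6 libraries (x axis), with the authors' lower and upper bounds as lines. BBX4 drops from 52.9 to 75.2 FPKM in wild type to 11.04 and 12.3 in wox11, and FKF1 climbs from 1.41 to 4.48 to 19.1 and 22.0.

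The genes that make the phytochrome chromophore were SE5, a heme oxygenase gene, at 20.9 to 26.9 FPKM, and HY2, a phytochromobilin synthase gene, at 11.2 to 16.8. Neither passed, with log2 changes in wox11 of -0.13 and -0.25. Among COP/DET repressors with an entry of their own, CSN5, a subunit of the signalosome, was highest at 66.6 to 81.9 FPKM and SPA1a, a relative of COP1's partner SPA1 in Arabidopsis, lowest at 9.32 to 13.1. The entry that joins DDB1 with another gene stood higher, at 110.3 to 121 FPKM. Of the PIF-like genes with an entry of their own, PIL16 was highest at 7.16 to 10.9 FPKM and PIL12 lowest at 1.10 to 1.96, so PIL13 at 4.10 to 7.50 lay between. PIL16 stood at 10.7 ± 0.248 FPKM for wild type and 7.34 ± 0.265 in the pair labelled jmj705, lower in 2 of 2 libraries (log2 change -0.49, SE 0.14, adjusted p = 0.237).

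JMJ705 binding was the other readout. None of the 8 members had a JMJ705 peak within 1 kb of the locus, in the wild-type background (0 of 8, against 4.01% of named loci) or the wox11 background (0 of 8, against 3.45%), and with 8 genes such shares leave nothing to read from the count. Within 5 kb the count was again 0 of 8 in both, against 6.98% and 5.86% of named loci. The 2 lists hold 1551 and 1309 peaks, from 5043282 and 7509947 tags, and a peak below the authors' cutoff would not be seen. Every peak of the wox11-background list has a false discovery rate of 5.59% or more by the authors' estimate. Distances from the 8 loci to the nearest peak ran from 12.8 to 340.4 kb in the wild-type background and from 6.05 to 946.0 kb in the wox11 background, where the median over named loci was 90.3 and 107 kb. The closest was a peak of the wox11 background 6.05 kb past CRY1a (chromosome 2, 21986469 to 21987304, 37 tags, 5.58-fold over its control by the authors' value). PHYA, PHYB and PHYC had their nearest wild-type-background peak at 24.3, 28.8 and 12.8 kb.

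The loci of all 3 phototropins, the blue-light receptors of bending growth and chloroplast movement, did carry peaks. PHOT1b (LOC_Os11g01140) had a peak at chromosome 11, 81256 to 82110, in the wild-type background (57 tags, 22.8-fold by the authors' value), and an overlapping one in the wox11 background (48 tags, 12.3-fold). PHOT1a (LOC_Os12g01140) had peaks at chromosome 12, 76929 to 77925 (43 tags, 14.3-fold), and 77118 to 77801 (41 tags, 9.93-fold). The fold values belong to separate lists and are not compared between backgrounds. Both loci were nearly silent: PHOT1a stood at 0.112 to 0.271 and PHOT1b at 0.0982 to 0.279 FPKM over the 6 libraries, below the filter for the test. The 2 genes lie in a duplicated stretch shared by the ends of chromosomes 11 and 12, so reads and peaks of one can come from the other.

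PHOT2 (LOC_Os04g23890), by contrast, was expressed at 2.34 to 5.05 FPKM and had a peak at chromosome 4, 13652545 to 13653678, in the wild-type background (45 tags, 5.87-fold). Its nearest wox11-background peak lay 118 kb away, and whether the backgrounds differ there cannot be tested with 1 list each. PHOT2 stood at 3.57 ± 0.935 FPKM for wild type, 4.71 ± 0.481 in wox11 and 2.99 ± 0.922 in the pair labelled jmj705 (adjusted p = 0.694 and 0.799). Over the 20 matched genes of the list, 4 had a peak within 1 kb in the wild-type background and 2 in the wox11 background, against the same 4.01% and 3.45%. The fourth was PIL14, whose entry spans 272 kb and overlaps 55 other entries, so the 2 peaks there cannot be tied to the gene. The loci of PHOT1a, PHOT1b and PHOT2 span 14.7, 14.9 and 13.3 kb, and a longer span has more room for a peak. Locus length was not matched, so the shares of all named loci are not a like background. The 2 genes with a wox11-background peak were PHOT1a and PHOT1b, whose reads can be shared. BBX4 and FKF1, which changed in wox11, had no peak within 77.2 and 240.8 kb in either background.

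**Figure D4:**
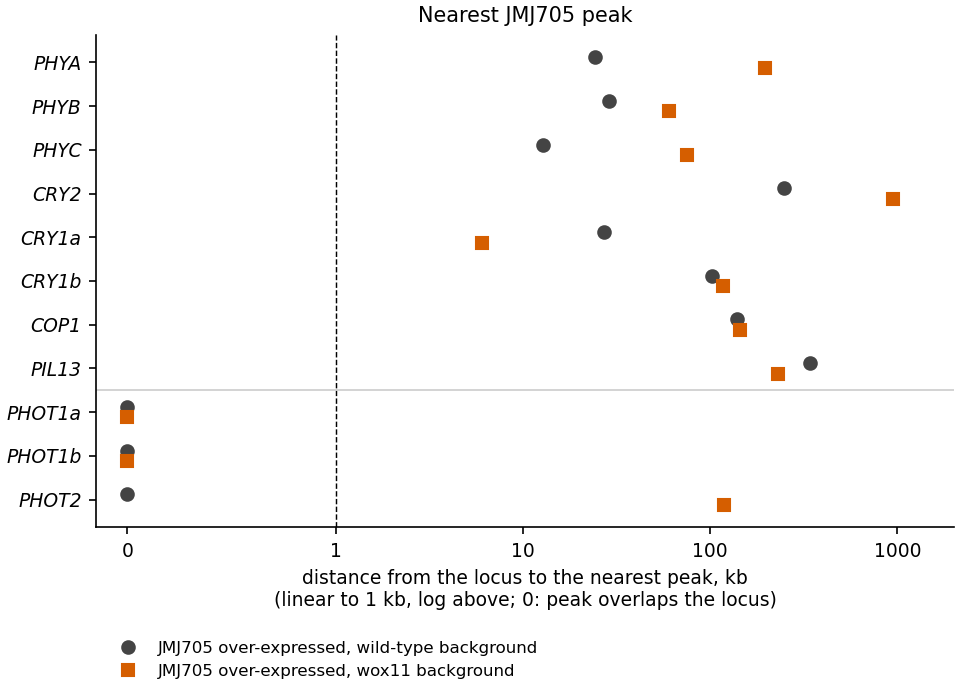
Distance in kb from each locus to the nearest JMJ705 peak (x axis, linear to 1 kb and logarithmic above, with a dashed line at 1 kb) for the 8 members and, below the grey line, the phototropin genes, in the wild-type (circles) and wox11 (squares) backgrounds. The 8 members lie between 6.05 and 946.0 kb, and PHOT1a and PHOT1b at 0 in both backgrounds.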

How the data were processed

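The submitters' processing notes name Trimmomatic, TopHat and Cufflinks for the RNA samples, and Trimmomatic 0.32, Bowtie2 2.1.0 and SAMtools 0.1.17 for the ChIP samples. The authors deposited FPKM with confidence bounds for 57567 entries per library, per the file headers. The genome build was not given in the sources used here. Per the file headers, MACS 1.4.2 called each peak list against a control with a p-value limit of 1e-05. As deposited, each peak has a tag count, a score (10 times its −log10 p-value), a fold ratio to the control, and an FDR in percent, all the authors' values. An input DNA sample was not analysed here.

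Here 55719 named loci were kept, and 21480 with at least 1 FPKM in at least 2 libraries entered, as log2(FPKM + 1), a moderated test by limma 3.58.1 under R 4.3.3 (1 mean per genotype, 3 residual degrees of freedom, trended variance), checked on simulated data. FPKM do not carry total read numbers. Among loci below 0.15 FPKM the most frequent ratio to wild-type replicate 1 was 0.959 to 1.03, but only 27.5 to 30.3% of ratios lay within 0.05 log2 of it, so relative depth is not settled. The design text calls the libraries of a genotype biological repeats, and a p-value here speaks only of the spread among them. Members and lists were chosen with earlier results of these data known. The genes named are the 8 members and, from a light list, those past the test and the highest and lowest of each role. ZTL2, DDB1, the middle phototropin and PIL14 fall outside that rule and were chosen after their values were seen, the phototropins and PIL14 being described for their peaks. The RefSeq table of assembly ASM3414082v1 holds no LOC_Os names. It lists PHYA, PHYB and PHYC at a like place, and the other 5 members rest on the given names. A like place means a gene of that name on the same chromosome, starting within 2000000 bp. Of the 20 counted genes of the light list, 4 were listed at a like place. The others, BBX4 and FKF1 among them, rest on the names used here, which were not checked. Profiles were therefore compared among listed genes only. Start coordinates were raised by 1 to count from 1. Peaks count as near when they overlap a locus widened by 1000 bp. Alternatives were other pseudocounts, filters, scalings, fits, single libraries left out and other peak rules.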

Additional observations from a re-analysis of the deposited data

How the results depend on the processing

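None of the 360 recomputed log2 changes of the 8 members (15 settings in 3 comparisons) passed the threshold, with adjusted p no lower than 0.239, and 0 members had a peak within 1 kb under every other peak rule, which for the wox11 background could not include an FDR limit of 5%, met by 0 of its peaks. The sign turned in 15 of them, all of size 0.25 or less. In wox11, PHYC was 0.014 with quantile normalization and 0.0041 with median-ratio scaling, and leaving out 1 library gave PHYC -0.18 to 0.16 and PHYB -0.45 to 0.048. In the libraries labelled jmj705, PHYB was -3.6e-04 with a pseudocount of 5 FPKM, and leaving out 1 library gave PHYB -0.25 to 0.25 and PHYC -0.19 to 0.14. Between mutants the same ranges were -0.19 to 0.16 for PHYC, -0.056 to 0.086 for CRY1b and -0.40 to 0.049 for COP1.

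Calls over all loci numbered 180 in wox11 (34 with no FPKM filter, 21 to 182 leaving out 1 library), 86 in the libraries labelled jmj705 (55 with quantile normalization, 11 to 86) and 61 between mutants (11 to 64). Leaving out any library of the genotypes compared moved these counts by over 1.5 times, except wild-type replicate 2 in the second comparison (64), and the lowest counts came without wox11 replicate 2, jmj705 replicate 2 and wox11 replicate 2 in turn. Listed light genes called in wox11 numbered 2, but 0 with no FPKM filter, 1 with quantile normalization, 1 in a fit of 2 genotypes, and 0 to 2 leaving out 1 library. In the libraries labelled jmj705 they numbered 0, and 0 to 1 leaving out 1 library (FKF1). The cause of these shifts was not tested, and leaving out a library also leaves fewer samples. The labels number the replicates 1 and 2 in each genotype without saying what a number shares, and deviations of same-numbered libraries had correlations of 0.29, 0.12 and 0.11 across loci. With the replicate number as a block, 230, 89 and 69 loci were called, 0 members, and 1 light gene each in the libraries labelled jmj705 and between mutants, BBX4 (adjusted p = 0.0300 and 0.0274). With 2 libraries a genotype, member changes inside the intervals given above could not be told from none.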
